A study of Homo sapiens with 2 samples.

Results

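The genes described here encode 8 proteins that copy DNA at the replication fork: PRIM1, POLA2, POLE, POLE2, POLD1, PCNA, FEN1 and LIG1. They were chosen by name, with earlier results of these data known, so the counts below describe them and test nothing. Each gene was taken at 1 annotated transcription start in the genome build hg19. An E2F1 peak was assigned to a gene when it overlapped the 2 kb on either side of that start by at least 1 bp. All 8 genes had a peak by this rule, and their 8 peaks are among 28734 in the list.

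The peaks come from chromatin immunoprecipitation followed by sequencing (ChIP-seq), which maps where a protein sits on DNA, here the transcription factor E2F1. The E2F1 library was made from LNCaP-abl cells, an androgen-independent line of prostate cancer cells derived from LNCaP, with a pair of E2F1 antibodies. The cells were at passages 61 to 64, grew in phenol-red-free medium with 10% charcoal-stripped serum and went without androgen for 3 days before collection. An input library of the same cells, made with no antibody, is the only other of the 2 samples, and no values of it are used here. There is 1 E2F1 library and no replicate, so no value below carries an error between samples and no test was made. Read depth is unknown, because the list holds positions and scores but no counts. RNA levels of these genes are not analysed here.

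At a replication fork, primase and DNA polymerase alpha lay down short primers, and DNA polymerases epsilon and delta extend the leading and the lagging strand. PCNA is the ring-shaped clamp that keeps the polymerases on DNA, and FEN1 and LIG1 trim and join the lagging-strand fragments. E2F factors are held in check by RB-family proteins in quiescent cells and, once released, activate many genes needed for S phase, replication genes among them. E2F proteins bind DNA at short words close to TTTCCCGC or TTTGGCGC.

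The promoters of 6 of the 8 genes hold such a word of at least 7 letters, as do 13.0% of all RefSeq promoters, and these sites are shown because they are the letters E2F proteins are known to read. Sequences are from RefSeq, build GRCh38.p14, on the strand of the gene, with the word in capitals (its reverse complement where the word lies on the other strand). Positions are counted from the RefSeq start base as 0, negative before it. PCNA has its word from -59 to -52, POLA2 from -53 to -46, POLE from -18 to -11, LIG1 from -114 to -107 and POLE2 from -5 to 2, across the start itself. PRIM1 has the shorter, 7-letter form from -24 to -18.
PCNA, chr20:5126663-5126692, minus strand: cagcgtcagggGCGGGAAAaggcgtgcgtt
POLA2, chr11:65261898-65261927, plus strand: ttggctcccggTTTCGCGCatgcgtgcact
POLE, chr12:132687342-132687371, minus strand: tgggtgggagcGCGCCAAAtttctcccctg
POLE2, chr14:49688201-49688230, minus strand: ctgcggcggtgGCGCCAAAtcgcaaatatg
LIG1, chr19:48170440-48170469, minus strand: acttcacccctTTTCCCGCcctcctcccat
PRIM1, chr12:56752330-56752358, minus strand: cggccgtgctgTTCCCGCcaattcctgtg

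No such word was found in the promoter windows of POLD1 and FEN1. Their last 120 bases before the start are shown for comparison, all in lower case. They say only that these letters are not in this window.
POLD1, chr19:50384203-50384322, plus strand: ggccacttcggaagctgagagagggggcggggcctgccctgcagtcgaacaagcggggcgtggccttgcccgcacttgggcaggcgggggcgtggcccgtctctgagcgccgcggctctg
FEN1, chr11:61792791-61792910, plus strand: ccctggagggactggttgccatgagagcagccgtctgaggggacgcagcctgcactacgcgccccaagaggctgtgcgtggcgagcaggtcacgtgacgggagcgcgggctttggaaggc

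E2F1 was called directly over the start of every one of these genes. All 8 starts lay inside a peak, and in each case it was the only peak within 2 kb. For scale, 0.488% of all positions between the first and the last peak of the nuclear chromosomes lie inside a peak, and 3.93% have one within 2 kb. Gene starts are not ordinary positions, and the share of all gene starts with a peak was not analysed here, since no gene table of hg19 was used. The peaks reached 256 to 697 bp upstream and 247 to 684 bp downstream of the start.

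The 8 peaks were also among the strongest in the list. This compares them with peaks at any position, and scores of peaks over other gene starts were not analysed here. The authors' score per peak, taken here as higher for stronger peaks, is given as a percentile, the share of all peaks with that score or a lower one. Scores of the 8 ran from 153 to 248 with a median of 211, against a median of 23.5 and quartiles of 10.1 and 60.7 over all peaks. All 8 were in the top 10% (score of at least 110), which holds 10.0% of peaks by construction. Their percentiles ran from 95.6 to 99.4 with a median of 98.5. The weakest of the 8 scored 6.51 times the median peak and the strongest 10.5 times.

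**Figure D1:**
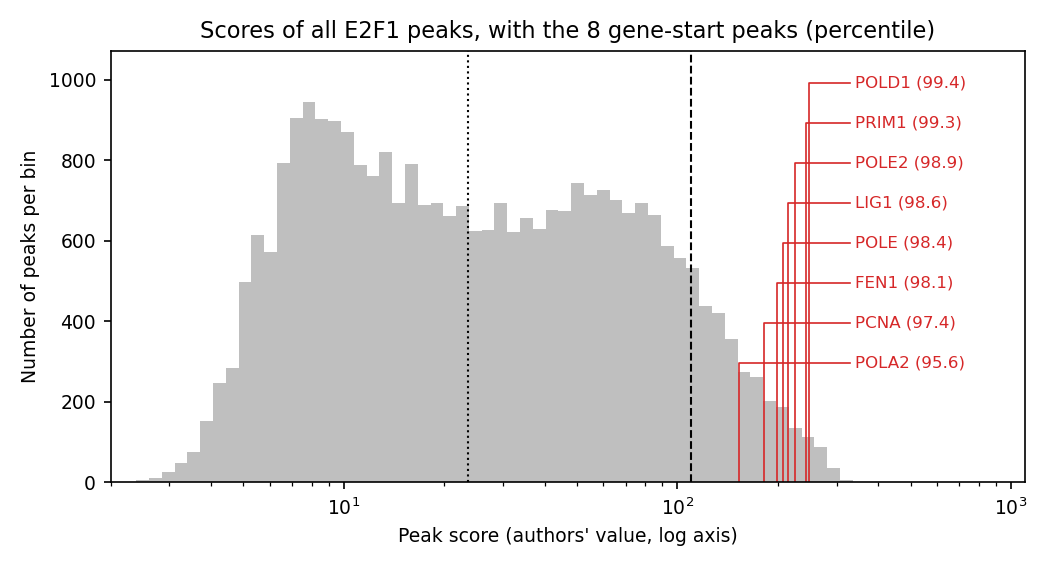
Number of peaks per bin of score (log axis) over all 28734 E2F1 peaks in grey, with a red line at the score of each of the 8 gene-start peaks and its percentile in brackets. The dotted line is the median of all peaks, 23.5, and the dashed line the threshold of the top 10%, 110, with all 8 red lines to its right.

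Of the genes for the primer-making complex, PRIM1 was second from the top of this range and POLA2 at the bottom. PRIM1, the catalytic subunit of primase, had a peak on chromosome 12 from 57145631 to 57146436 (hg19 and 1-based, as for all peaks) with a score of 243. This was percentile 99.3, rank 203 of all peaks and rank 11 of 1465 on its chromosome. POLA2, the regulatory B subunit of DNA polymerase alpha, had the lowest score of the 8. Its peak on chromosome 11 from 65029045 to 65030053 scored 153, percentile 95.6 and rank 1279. PRIM1 and POLA2 proteins work in 1 complex, and 1075 peaks of the list have a score between theirs. With 1 library, whether this difference exceeds the spread between libraries cannot be said.

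The replicative polymerases on the 2 strands of the fork scored between 208 and 248. POLD1, the catalytic subunit of DNA polymerase delta, had the highest score of the 8, at 248, on chromosome 19 from 50887088 to 50887970 (percentile 99.4, rank 172). POLE, the catalytic subunit of DNA polymerase epsilon, scored 208 on chromosome 12 from 133263352 to 133264642 (percentile 98.4, rank 467). POLE2, the second subunit of that polymerase, scored 225 on chromosome 14 from 50154675 to 50155282 (percentile 98.9, rank 310). With no replicate, whether neighbours in this order differ beyond the spread between libraries cannot be said. The narrowest gaps were 4.88 score units between POLD1 and PRIM1 and 6.20 between LIG1 and POLE.

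The clamp gene PCNA scored 182, percentile 97.4 and rank 750, with a peak on chromosome 20 from 5107021 to 5107849. The enzymes that finish the lagging strand had higher scores than PCNA. LIG1, the ligase that seals the fragments, scored 214 on chromosome 19 from 48673268 to 48673978 (percentile 98.6, rank 398). FEN1, the flap endonuclease that removes displaced primers, scored 199 on chromosome 11 from 61559853 to 61560793 (percentile 98.1, rank 551). From the highest to the lowest score the order was POLD1, PRIM1, POLE2, LIG1, POLE, FEN1, PCNA and POLA2, and the highest was 1.62 times the lowest.

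**Figure D2:**
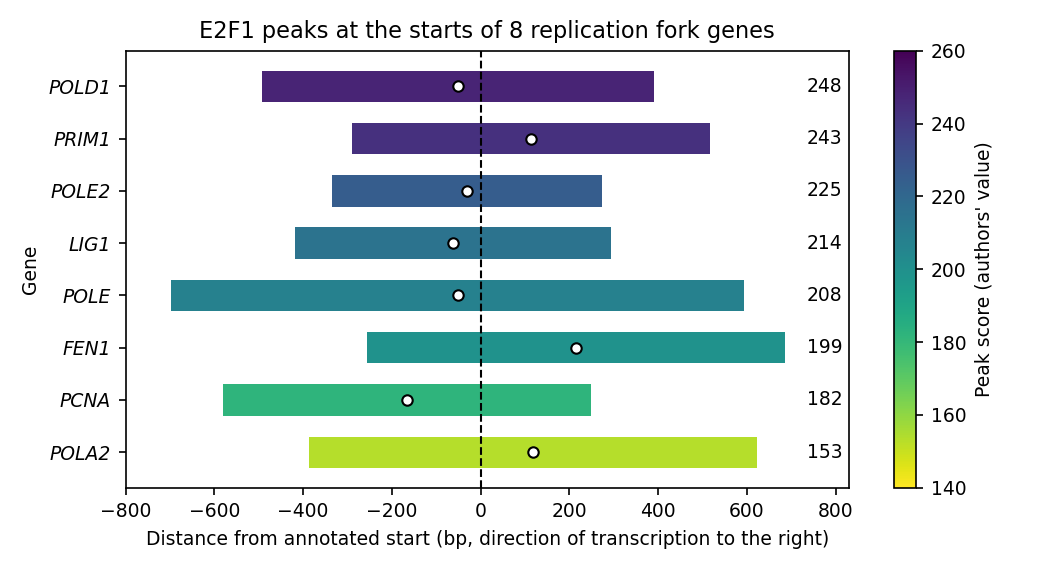
Extent of the E2F1 peak over each start, in bp from the annotated hg19 start (dashed line) with transcription to the right, ordered and coloured by the authors' score, which is printed at the right. White dots mark the centres, which lie between 167 bp upstream (PCNA) and 214 bp downstream (FEN1) of the start.

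The peak centres lay close to the starts, with no common side. The distance from start to centre was between 30.5 and 214 bp, with a median of 87.8 bp. In 5 genes the centre was upstream, by 167 bp in PCNA, 63.0 in LIG1, 52.0 in POLE, 51.0 in POLD1 and 30.5 in POLE2. In the other 3 it was downstream, by 112.5 bp in PRIM1, 117.0 in POLA2 and 214 in FEN1. These sides and distances hold for the hg19 starts used here, and another annotated start of a gene would shift them. The list gives no summits, so the point of highest signal within a peak is not known.

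The peaks were wider than most, and their order by width was not their order by score. They measured 608 bp (POLE2) to 1291 bp (POLE), with a median of 856 bp, against a median of 418 bp and quartiles of 286 and 679 bp over all peaks. The narrowest, POLE2, had the third highest score, and the second widest, POLA2 at 1009 bp, had the lowest. Score and width come from the same peak calls, so each score was also set beside peaks whose width was within 10% of its own. On this scale the percentiles were 98.5 for POLE2, 98.2 for POLE, 97.6 for POLD1, 96.6 for PRIM1, 95.2 for LIG1, 94.5 for FEN1, 90.4 for PCNA and 87.5 for POLA2. PCNA and POLA2 thus stood less far above peaks of their width than the other 6. Among peaks of the same chromosome, the 8 percentiles ran from 94.4 (POLA2) to 99.3 (POLD1).

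**Figure D3:**
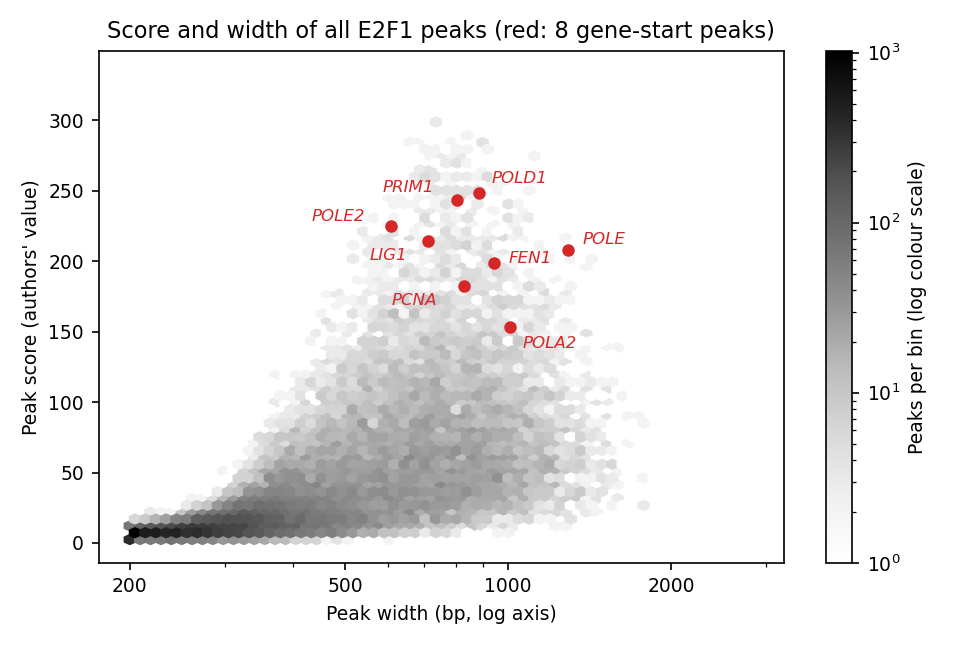
Score against width (bp, log axis) for all E2F1 peaks, as bins shaded by the number of peaks, with the 8 gene-start peaks in red. POLE2 is the narrowest of the 8 at 608 bp and POLE the widest at 1291 bp, and POLA2 has the lowest score at 153.

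The distance from these peaks to the next one varied widely. It was over 10 kb for 5 of the 8, a share near the 60.5% of all nuclear peaks. This distance, from edge to edge, was 51829 bp for POLA2, 45919 for POLE2, 32854 for LIG1, 22392 for POLE, 14880 for FEN1, 6899 for POLD1, 6882 for PRIM1 and 6036 for PCNA. POLA2 had no other peak within 50 kb although the 1 Mb bin that holds it, from 65000001 on chromosome 11, has 60 peaks, and only 2 bins of the genome have more. The next peak was weak at PRIM1 (score 5.27, percentile 4.69), FEN1 (5.73, percentile 6.69) and POLE2 (8.93, percentile 21.0). At LIG1 it was strong, with a score of 170 and percentile 96.7.

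PCNA was the only one of the 8 with a stronger peak than its own start within 60 kb. That peak lay on the transcribed side, 6284 to 7575 bp downstream of the start, was 1292 bp wide and scored 216 (percentile 98.7, rank 372), against 182 at the start. A further peak, 13075 to 13958 bp downstream, scored 104 (percentile 88.8). RefSeq lists a second PCNA start 6664 bases downstream of the first in GRCh38. The distances are from different builds and were not placed on each other. The promoter window of the second start holds 0 E2F words of 8 or 7 letters. For POLD1, RefSeq lists a second start 14529 bases downstream of the first. The nearest called peak on that side of the hg19 start was 43744 bp away, with a score of 7.96. Within 100 kb of the POLE2 peak there was also a stronger one, with a score of 236 against 225.

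**Figure D4:**
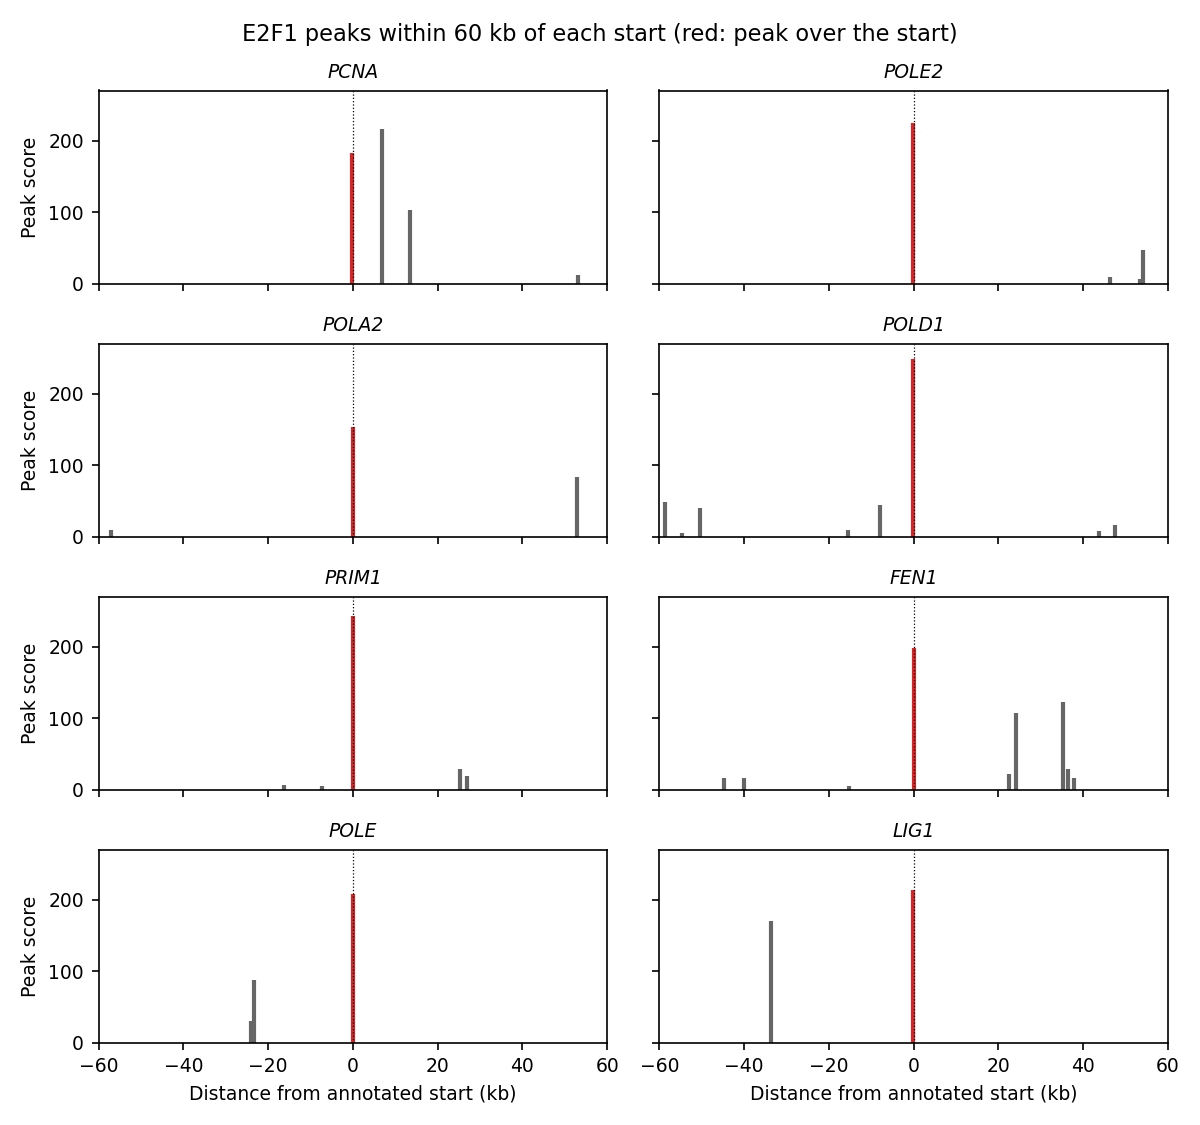
Score of every E2F1 peak within 60 kb of each start, at its distance from the start in kb with transcription to the right. The peak over the start is red and the others are grey; at PCNA a grey peak of score 216 exceeds the red one of 182, and in the other 7 panels the red line is the highest.

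Some of these genes start close to a neighbouring gene on the other strand, and a peak there cannot be assigned to 1 gene of the pair. The strand and spacing of the nearest upstream protein-coding neighbour were determined for 6 of the 8 genes, and not for LIG1 (neighbour ZSWIM9) and PRIM1 (HSD17B6). Head-to-head starts within 1 kb were found for 3 of the 8, PCNA with CDS2 (386 bases between starts), FEN1 with TMEM258 (312) and POLE with PXMP2 (245). By the starts in the RefSeq promoter table, an opposite-strand coding start within 1 kb upstream was found for 11.3% of its 15859 protein-coding genes. This share misses any neighbour without an entry, as does the count of 3. It also counts any such start, while the 8 genes were judged by their nearest upstream neighbour only. The peaks reached 581 bp upstream of the hg19 start at PCNA, 697 bp at POLE and 256 bp at FEN1. The spacings are counted between RefSeq starts in GRCh38, which may not be the same bases as the hg19 starts. Whether these peaks cover the start of the neighbour was therefore not determined. The nearest upstream neighbour was 4906 bases from start to start for POLE2 (KLHDC1, other strand) and 7866 for POLD1 (NR1H2, same strand).

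The promoter words were then counted over whole windows of 300 bases, 250 before the start and 50 from it on, searched on both strands. The 8-letter E2F words were TTTCCCGC, TTTCGCGC, TTTGCCGC and TTTGGCGC, and 5 of the 8 promoters held one, against 3.31% of 35116 RefSeq promoters. Among promoters of protein-coding genes, 1 per gene, the share was 4.44%, and among those as rich in G and C as the 8 (65.0 to 73.7%) it was 5.73%. The 7-letter words lack the first T, are contained in the 8-letter ones and were found in 6 of the 8 promoters, against 13.0% of all promoters. Their share was 17.0% among protein-coding genes and 23.6% among those in the same range of G and C. LIG1 held 3 of them, from -113 to -107, from 10 to 16 and from 24 to 30, and POLE held 2, from -113 to -107 and from -18 to -12. PCNA, POLA2, PRIM1 and POLE2 held 1 each. A word is a description of the sequence and not a measured binding site, and since the builds differ the words were not placed within the peaks.

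The presence of a word did not follow the order of the scores among these 8 genes. The gene with the highest score, POLD1, had none, and the genes with the lowest scores, POLA2 and PCNA, each had an 8-letter word. FEN1 had none of the words searched in its window. The windows are placed on RefSeq starts in GRCh38, while the peaks were assigned at hg19 starts. Whether these starts are the same base was not determined, for FEN1 or any other gene. Bases upstream of an hg19 start may therefore lie outside the window searched.

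Other promoter words differed between the genes, and the shares of GC and CCAAT boxes were not far from those of all promoters. The GC box (GGGCGG), known as a site of Sp1-family factors, was found in 5 of the 8 promoters, against 45.0% of all. PCNA and LIG1 held 4 each and POLE 3, while POLA2, PRIM1 and FEN1 held 0. In PCNA and LIG1 a GC box overlaps the 8-letter E2F word. The CCAAT box, known as a site of NF-Y, was found in 3 promoters (PCNA 3, POLE 2, PRIM1 1), against 34.6% of all promoters. The word TATAAA was found in 0 of the 8, against 11.5% of all promoters. The 8 windows were rich in G and C, at 65.0 to 73.7% with a median of 68.5%, against a median of 58.7% for all promoters.

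Of 21 further fork genes (other polymerase subunits, clamp loader, single-strand binding and chromatin assembly proteins), 16 were matched in the promoter table. An 8-letter E2F word was found in 3 of the 16 (POLA1, POLE4 and RFC3) and a 7-letter word in 10. Among protein-coding genes, 4.44% and 17.0% held such words. POLA1 encodes the catalytic subunit of polymerase alpha, POLE4 a small subunit of polymerase epsilon and RFC3 a subunit of the clamp loader. GC boxes were found in 13 of the 16, CCAAT boxes in 10 and TATAAA in 0. The shares among protein-coding genes were 58.4%, 36.4% and 9.74%. Whether E2F1 peaks lie at these genes was not analysed here.

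**Figure D5:**
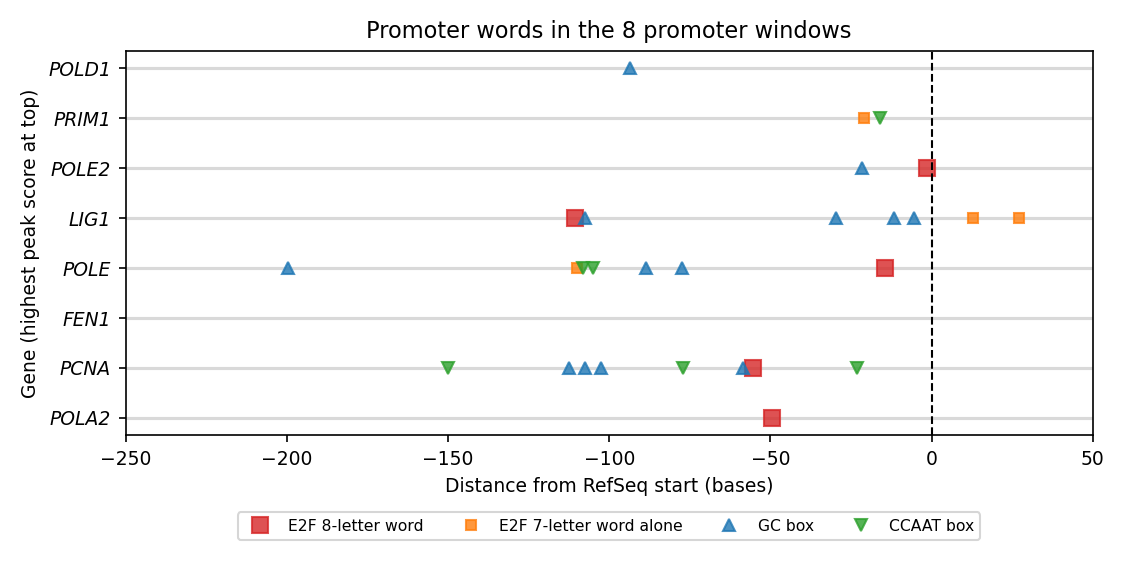
Positions of promoter words in the RefSeq windows of the 8 genes, in bases from the start, with genes ordered by E2F1 score from the top. Red squares are 8-letter E2F words, orange squares 7-letter ones outside an 8-letter word, blue triangles GC boxes and green triangles CCAAT boxes. In these windows POLD1 has a GC box only and FEN1 has none of the words. The RefSeq starts may not be the hg19 starts at which the peaks were assigned.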

How the data were processed

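The deposited peak list gives chromosome, start, end, name and a score per peak, with no header. That score is the authors' own value for the peak, on a scale not stated in the labels, and served here to rank peaks within the list. The submitters' processing notes name hg19, MACS2 2.0.9, CASAVA 1.6.0 and Bowtie. What each tool did, with which settings and with the input as control or not, is not given in these sources. Starts were taken as 0-based and are printed 1-based.

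The 8 hg19 starts came with the choice of genes, and all 8 genes are named with their values. Members, gene lists and words were chosen with earlier results of these data known; the comparisons of neighbouring genes and of the gaps between peaks, and the second listed starts, were added after their values were seen. Promoter sequences are RefSeq's (GRCh38.p14), all 8 genes were matched, and for genes with several starts the most upstream was used. No coordinates were moved between builds. Gene strands are from the same table.

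Computation used Python 3.11.15, pandas 2.3.3, numpy 2.4.6, scipy 1.17.1 and matplotlib 3.10.9, and was tested on simulated data. Alternatives were other windows, score thresholds, peak sets and words.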

Additional observations from a re-analysis of the deposited data

How the results depend on the processing

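All 8 starts kept a peak, and a peak in the top 10%, with windows of 500 bp, 1 kb, 5 kb and 10 kb; all 8 also kept a peak when the peak centre had to lie in the window and when only the top 50% or the top 25% of peaks were used. The median percentile of the 8 scores, 98.5 among all peaks, was 98.2 among peaks of the same chromosome, 95.9 among peaks of similar width and 98.7 with the strongest peak within 10 kb, an alternative added after seeing the data, which differs by construction at PCNA. All 8 percentiles were lower among peaks of similar width. The median distance from the start was 0 bp to the peak itself, because every start lay inside one, and 87.8 bp to its centre. An E2F word was found in 5 promoters with 8 letters, 6 with 7 letters, 4 with TTTCCCGC or TTTGGCGC alone and 4 before the start only. Among all RefSeq promoters the shares were 3.31%, 13.0%, 2.27% and 2.79%, in the same order. Of 27 alternatives over the 8 genes, 23 kept their value within the limits set. This tally is not a measure of robustness. All 8 starts lay inside a peak of the top 5%, with centres at most 214 bp away. The other windows, the centre rule and the looser score thresholds could therefore not change a count of 8. The distance to the centre had no limit and was counted as not kept. For a count, the limit was 1.5 times the main count in either direction, so that 6 and 4 promoters counted as within it of 5. The limit for a percentile was 98.3 to 98.6, the exact 95% interval of a share that treats all 28734 peaks as independent draws. It served as a yardstick only and covers no spread between libraries or between the 8 genes. No paired analysis was possible because E2F1 was mapped in a single library, and for the same reason no replicate could be left out. What depth limits is unknown without read counts.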

Other observations

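The wider surroundings of the 8 starts differed. Within 100 kb, the number of other peaks was 1 for LIG1, 3 for PCNA, 5 for POLA2 and PRIM1, 6 for POLE, 7 for POLE2, 8 for POLD1 and 11 for FEN1. Downstream of FEN1, 5 peaks lay between 22429 and 37967 bp from the start, and the strongest of them scored 123 (percentile 92.2) and 108 (percentile 89.6). POLE was the only one of the 8 with no peak of an equal or higher score within 1 Mb, among 32 other peaks there. POLA2 had 4 such peaks among 107, PRIM1 3 among 76, PCNA 2 among 22, POLD1 2 among 77, FEN1 2 among 72, LIG1 1 among 73 and POLE2 1 among 29. These distances were chosen after the values were seen.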
